A study of Schizosaccharomyces pombe with 12 samples.

Results

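The atg and vps genes of fission yeast, Schizosaccharomyces pombe, were followed through exposure of the cells to heavy water (D2O), in which deuterium replaces ordinary hydrogen. Members were chosen by name: a listed feature belonged if its symbol was atg or vps followed by digits and at most 1 letter from a to c, and if its identifier was not that of a non-coding RNA. This gave 59 genes of the 7015 listed features, 24 atg genes and 35 vps genes. The rule uses no measured value, although this group of genes was taken up with earlier results of the same data known. No member was lost to the filter on low counts, since the lowest count of any member in any sample was 191 reads.

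All samples were wild-type cells with no selection markers, labelled as exponential phase and grown in YES, a rich medium of yeast extract and glucose. A control group was untreated in YES made with H2O, another group was kept for 5 h in YES with 100% D2O, and the remaining group for 24 h in the same D2O medium. Each group held 4 samples, which the series describes as independent. No H2O culture kept for 5 h or 24 h was analysed here, so time in D2O and time in culture or the transfer itself cannot be told apart.

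Macroautophagy encloses cytoplasm in a double membrane, the autophagosome, and delivers it to the vacuole, where hydrolases break it down. The Atg proteins build that membrane: a kinase complex starts it, a lipid kinase marks the site, Atg9 and Atg2 bring membrane, and ubiquitin-like conjugation attaches Atg8 to the lipid. Vps proteins carry cargo between Golgi, endosomes and vacuole, through the ESCRT, retromer, GARP and HOPS and CORVET complexes. In fission yeast autophagy is best known as a response to nitrogen starvation, where it recycles protein and allows cells to survive and mate. The symbol vps reflects a screen phenotype in budding yeast and not a common mechanism, and vps71 belongs to a chromatin remodelling complex.

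Total counts were 26775612 to 27166349 per sample over all features, so that 3 counts corresponded to between 0.104 and 0.126 CPM. CPM denotes read counts divided by a library size that TMM scaling corrects for differences in composition. The library labelled 24 h replicate 2 stood apart in rRNA, with 2.85% of counts against 0.0671% to 0.723% in the other samples. The genes that common auxotrophic strains lack or carry as mutants (leu1, ura4, ade6, his3, arg3 and lys1) had at least 1322 counts in every sample, and their summed level was 1668 to 1874 CPM in control samples, 1600 to 1671 CPM in 5 h samples and 1200 to 1291 CPM in 24 h samples. Changes were tested with edgeR's quasi-likelihood test in a single fit of all 12 samples, with Benjamini-Hochberg adjustment over the 6683 features tested, and a gene was called at an adjusted p under 0.05. Log2 fold changes are D2O over control unless stated otherwise. Values per sample are given for members called in opposite directions and for called members without overlap between the groups of a comparison. In that comparison the lack of overlap was fixed by the choice and is only a description.

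Autophagy genes were higher in D2O almost throughout. After 5 h, 22 of the 24 atg genes were higher and 2 (atg16 and atg17) were lower. At 24 h, 22 of 24 were higher, atg12 and atg16 did not pass the test, and 0 were lower, which was also the number lower at an unadjusted p under 0.05 and in DESeq2. The vps genes were mixed: 20 of 35 passed as higher and 6 as lower after 5 h, while after 24 h the counts were 22 and 5. Over all 59 members, 50 were called at 5 h (42 higher, 8 lower) and 49 at 24 h (44 higher, 5 lower). Of all features tested, 76.4% were called at 5 h (39.1% higher, 37.3% lower) and 81.2% at 24 h (41.8% higher, 39.4% lower). Since these are bulk cultures, more RNA per cell and more cells with high levels cannot be told apart.

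The atg genes had a median log2 fold change of 0.68 at 5 h and of 0.87 at 24 h. Over all features tested the median was 0.01 for either time. For vps genes the median was 0.19 at 5 h and 0.32 at 24 h. The sizes differed as the counts did. At least 2-fold higher levels were called in 3 atg genes at 5 h and 11 at 24 h, where 8.47% and 12.1% of all features reached that size. No member fell by 2-fold or more, the lowest value being that of vps74 (-0.67 at 24 h), whereas 3.82% of all features did so at 5 h and 9.01% at 24 h. The highest vps value was 0.83 at 5 h (vps24) and 0.94 at 24 h (vps1302), short of 2-fold in both. Without TMM, with scaling by library size alone, the median of all features moved to 0.21 at 5 h and 0.20 at 24 h, the atg medians to 0.88 and 1.05 and the vps medians to 0.39 and 0.51. Under that scaling the members called lower came down to 1 at each time, both calls being vps74. Of all 6683 features, 3589 were then higher and 1555 lower at 5 h, and 3521 were higher and 1940 lower at 24 h, so the small falls described below are falls relative to the bulk of features. Leaving out 5 h replicate 1 left 5 members lower at 5 h in place of 8, since vps26, vps71 and vps901 were not called then.

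**Figure D1:**
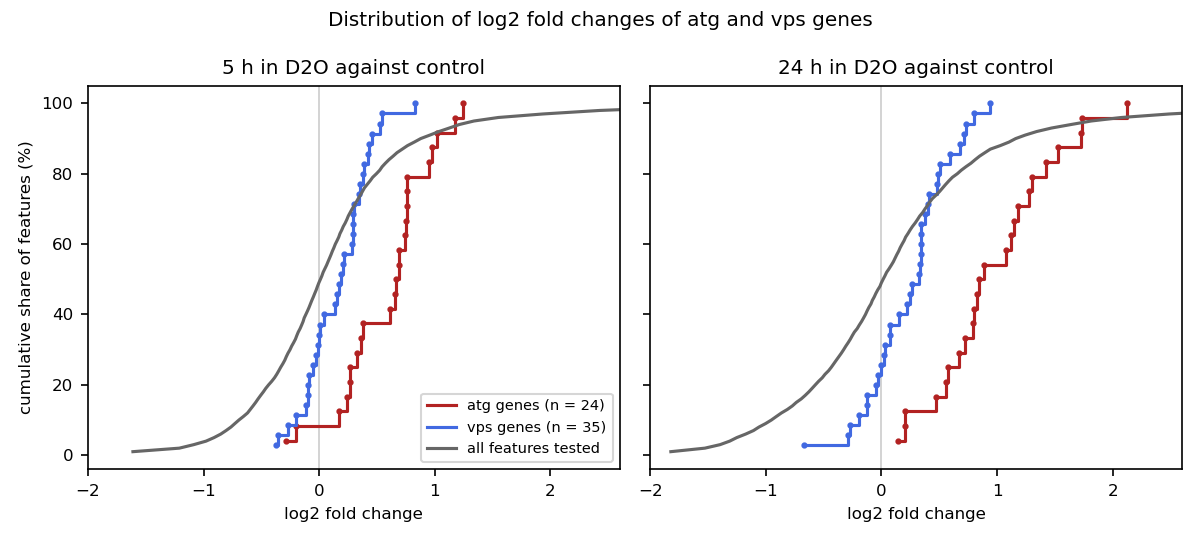
Cumulative share of features (y axis, %) by log2 fold change (x axis) at 5 h and 24 h in D2O against control, for atg genes, vps genes and all features tested (grey line, 1st to 99th percentile; x axis cut at -2 and 2.6). The atg curve lies to the right of the grey line over most of its length, with medians of 0.68 and 0.87, and the vps medians of 0.19 and 0.32 lie nearer to 0.

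In the deposited RPKM values, which are per length and not TMM scaled, the median atg gene had 15.1 RPKM without D2O, 24.7 RPKM after 5 h and 33.6 RPKM after 24 h. The median vps gene had 31.4 RPKM without D2O, 40.3 RPKM after 5 h and 41.0 RPKM after 24 h. For protein-coding features as a whole these medians were 34.6 RPKM without D2O, 40.7 after 5 h and 41.9 after 24 h. Among controls, the highest atg level per length was that of atg17 with 36.1 ± 1.40 RPKM, then atg11 with 33.2 ± 1.16 and atg8 with 31.0 ± 4.61 (SD, n = 4), and the lowest was that of atg1803 with 6.03 ± 0.899. At 24 h atg8 had 117 ± 5.56 RPKM, the highest of the atg genes, followed by atg17 with 60.6 ± 6.60, atg15 with 58.5 ± 3.54 and atg1 with 57.9 ± 5.19, which did not differ from one another beyond their spread. Among vps genes vps1 had the highest level per length in all 3 groups, 62.4 ± 2.80 RPKM without D2O, 87.0 ± 4.62 RPKM after 5 h and 116 ± 6.72 RPKM after 24 h. At the low end in the controls vps36 had 9.18 ± 0.577 RPKM and vps3 had 9.21 ± 0.735.

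The kinase complex that starts autophagy was higher at 24 h in every subunit measured. The genes are atg1 (the kinase), atg13 (its regulatory subunit), atg101 (a partner of Atg13), atg17 (a scaffold) and atg11 (also a scaffold), and all 5 were called higher at 24 h. Normalised counts of atg13 (SPAC4F10.07c) were 52.4, 51.0, 52.2 and 49.5 CPM in the controls, 77.4, 75.5, 76.0 and 94.2 CPM at 5 h and 145, 141, 143 and 161 CPM at 24 h. The 3 groups did not overlap, and the log2 fold change was 0.66 (SE 0.067, edgeR adjusted p = 4.50e-07) at 5 h and 1.52 (SE 0.067, edgeR adjusted p = 2.33e-11) at 24 h. For atg101 (SPAC25H1.03) the values were 8.32, 9.98, 9.89 and 8.51 CPM in the controls, 16.8, 19.4, 19.8 and 18.2 CPM at 5 h and 24.7, 23.7, 24.9 and 25.2 CPM at 24 h. All D2O samples lay above all controls, with a log2 fold change equal to 1.02 (SE 0.077, edgeR adjusted p = 1.75e-08) at 5 h and 1.42 (SE 0.076, edgeR adjusted p = 1.91e-10) at 24 h. This gene lies wholly within the non-coding RNA SPNCRNA.833 in the RefSeq models, whose log2 fold change at 24 h was 0.58, so reads of the pair may be shared.

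Within the complex, atg1 and atg17 rose mainly after 5 h. Of its 5 genes, 4 were higher at 24 h than at 5 h. Among them were atg13, with 0.87 (SE 0.065, edgeR adjusted p = 3.53e-08), and atg101, with 0.41 (SE 0.070, edgeR adjusted p = 1.35e-04). The kinase gene atg1 (SPCC63.08c) had 68.6, 62.9, 63.3 and 63.6 CPM in the controls, 76.3, 73.2, 73.5 and 82.6 CPM at 5 h and 157, 144, 155 and 169.9 CPM at 24 h. It was slightly higher at 5 h, with a log2 fold change equal to 0.24 (SE 0.053, edgeR adjusted p = 8.23e-04), and 2.42-fold higher at 24 h, with 1.28 (SE 0.053, edgeR adjusted p = 1.36e-11). Between the exposure times its log2 fold change was 1.03 (SE 0.052, edgeR adjusted p = 5.39e-10), the largest of any member. The scaffold gene atg17 (SPAC10F6.11c) had 107, 107, 116 and 113 CPM in the controls, 95.9, 89.5, 95.6 and 104 CPM at 5 h and 163, 144, 178 and 168 CPM at 24 h. Its 5 h samples lay below the controls and its 24 h samples above them, with log2 fold changes of -0.20 (SE 0.061, edgeR adjusted p = 0.00813) and 0.56 (SE 0.061, edgeR adjusted p = 6.95e-07). Under library-size scaling the 5 h value of atg17 was -0.0017 and no longer called. The RefSeq model of atg17 is overlapped over 46.7% of its length by rio1, an atypical protein kinase gene of ribosome maturation, whose own log2 fold change was -0.57 at 5 h and -0.95 at 24 h. Its part in the atg17 values was not tested. For atg11 the log2 fold changes were 0.17 (SE 0.034) at 5 h and 0.21 (SE 0.034) at 24 h.

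The conjugation genes atg4 and atg8 had the highest log2 fold changes of all members at 24 h, although the nexin gene atg20 was level with atg8 within the SE (1.73 against 1.74). Here atg8 encodes the ubiquitin-like protein that is attached to lipid, atg4 the protease that trims and releases it, atg7 the activating enzyme, and atg3 and atg10 the conjugating enzymes for Atg8 and Atg12. Atg12 itself is joined to Atg5, and Atg16 binds that pair. Of these 8 genes, 7 were higher and 1 lower at 5 h, and 6 were higher at 24 h. Normalised counts of atg4 (SPAC19B12.08) were 13.3, 13.9, 13.6 and 13.5 CPM in the controls, 29.3, 31.3, 32.2 and 29.8 CPM at 5 h and 59.2, 57.3, 61.0 and 59.1 CPM at 24 h. The 3 groups stood clearly apart, and atg4 was 2.26-fold higher at 5 h and 4.36-fold higher at 24 h, with log2 fold changes of 1.17 (SE 0.048, edgeR adjusted p = 2.08e-11) and 2.12 (SE 0.047, edgeR adjusted p = 1.47e-14). The gene for its substrate, atg8 (SPBP8B7.24c), had 30.0, 34.8, 26.9 and 34.0 CPM in the controls, 55.6, 54.6, 56.8 and 45.8 CPM at 5 h and 104, 106, 101 and 109 CPM at 24 h. Again no sample of a group overlapped another group, and the log2 fold change was 0.76 (SE 0.079, edgeR adjusted p = 5.89e-07) at 5 h and 1.74 (SE 0.078, edgeR adjusted p = 3.18e-11) at 24 h. From 5 h to 24 h both genes went on rising, atg8 by 0.98 (SE 0.075, edgeR adjusted p = 4.50e-08) and atg4 by 0.95 (SE 0.043, edgeR adjusted p = 1.48e-10) on the log2 scale. The gene rnf10 overlaps 12.1% of atg8 and had 0.065 after 5 h and 0.78 after 24 h. Its own rise from the earlier to the later D2O samples was 0.72. In the controls rnf10 averaged 2781.5 counts against 779.25 for atg8, and its part in the atg8 values was not tested.

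The enzymes of conjugation differed in their timing. Normalised counts of atg3 (SPBC3B9.06c) were 15.4, 17.6, 17.1 and 16.3 CPM in the controls, 28.9, 28.3, 29.7 and 25.8 CPM at 5 h and 36.2, 39.7, 34.3 and 36.8 CPM at 24 h. Its log2 fold change was 0.76 (SE 0.065, edgeR adjusted p = 6.16e-08) at 5 h and 1.15 (SE 0.064, edgeR adjusted p = 3.43e-10) at 24 h, with the 24 h samples above the 5 h samples. The Atg12 enzyme gene atg10 (SPAC227.04) had 10.4, 10.5, 11.9 and 11.4 CPM in the controls, 22.9, 19.6, 22.4 and 20.7 CPM at 5 h and 18.3, 19.8, 19.3 and 19.1 CPM at 24 h. It was highest at 5 h, with a log2 fold change equal to 0.95 (SE 0.070, edgeR adjusted p = 1.24e-08), and stood at 0.79 (SE 0.070, edgeR adjusted p = 6.60e-08) at 24 h, although its 5 h and 24 h samples overlapped. The Atg12 partner gene atg5 was also highest at 5 h, with log2 fold changes of 0.69 (SE 0.040) at 5 h and 0.47 (SE 0.040) at 24 h, a difference between the times of -0.22 (SE 0.039, edgeR adjusted p = 2.25e-04) and no overlap between the D2O groups. The activating enzyme gene atg7 had 0.75 (SE 0.069) and 0.80 (SE 0.069), and 73.3% of its model is overlapped by mde4, which had 0.26 and 0.043. In the controls mde4 averaged 1815.25 counts against 757.5 for atg7, and its part in the atg7 values was not tested. Both remaining genes showed little: atg12 had 0.36 (SE 0.095) at 5 h and 0.21 (SE 0.096, edgeR adjusted p = 0.0608) at 24 h, and atg16 had -0.29 (SE 0.079, edgeR adjusted p = 0.00435) at 5 h and 0.14 (SE 0.078, edgeR adjusted p = 0.110) at 24 h. Under library-size scaling the fall of atg16 at 5 h became -0.089 and was not called, and atg12 and atg16 were both called higher at 24 h. An antisense RNA over 81.1% of atg12 had 0.37 and 0.22. The gene hrp1 also overlaps atg12, over 18.3% of its length, and had -0.31 and -0.52. It averaged 8202 counts in the controls against 224.5 for atg12, and its part in the atg12 values was not tested. With a single library left out, atg12 was called higher at 24 h without 24 h replicate 1 (adjusted p = 0.0354), 24 h replicate 4 (0.0458) or 5 h replicate 1 (0.0440), and atg16 without 24 h replicate 2 (0.0493).

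**Figure D2:**
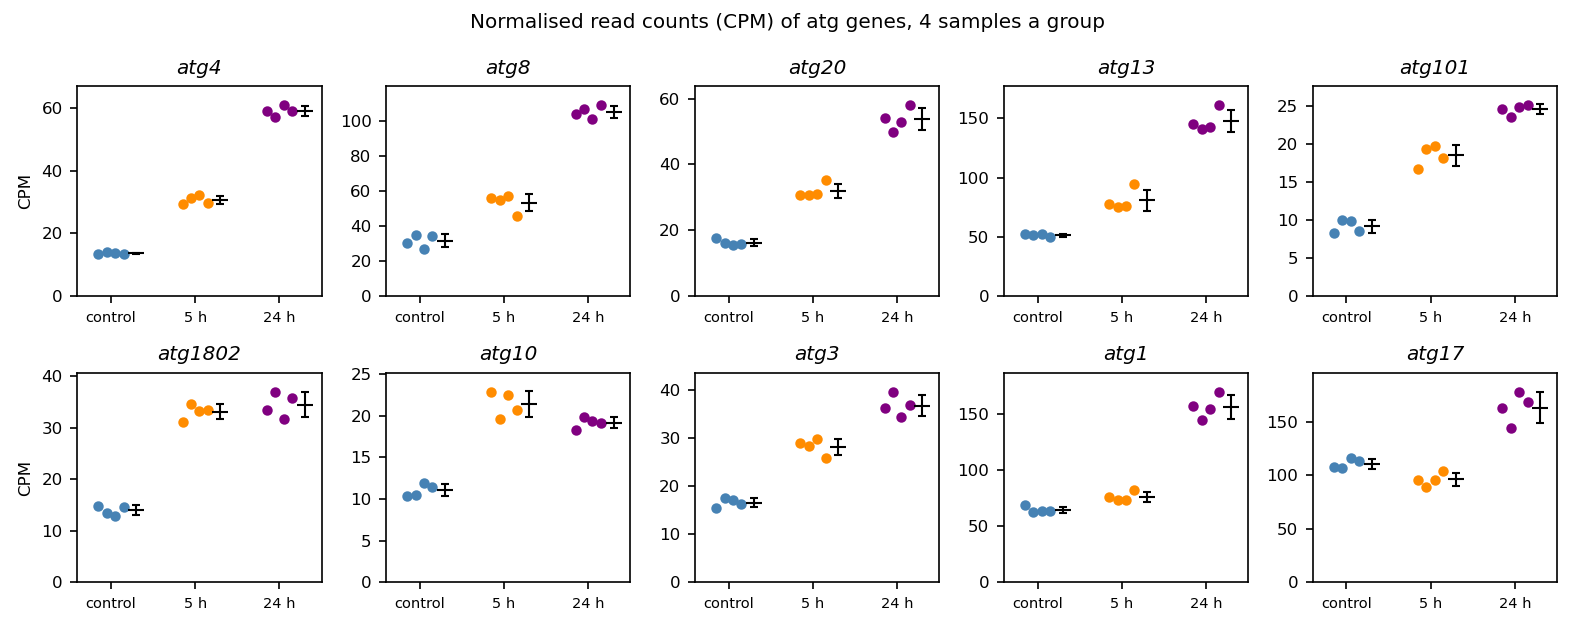
Normalised read counts (CPM, y axis from 0) of 10 atg genes in each of the 4 samples of the control, 5 h D2O and 24 h D2O groups (points), with the mean and SD beside them. In atg4, atg8, atg20, atg13 and atg1 the 24 h samples lie above the 5 h samples and these above the controls, atg10 is highest at 5 h, and atg17 is lowest at 5 h.

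The lipid kinase complexes make phosphatidylinositol 3-phosphate, which recruits later Atg proteins. The autophagy subunit atg14 had a log2 fold change of 0.27 (SE 0.057) at 5 h and 0.89 (SE 0.057, edgeR adjusted p = 1.56e-09) at 24 h, and the shared Beclin subunit atg6 had 0.61 (SE 0.066) and 1.07 (SE 0.065, edgeR adjusted p = 8.68e-10). For its part vps38, the subunit of the endosomal form of the complex, had -0.0040 (SE 0.052, edgeR adjusted p = 0.946) at 5 h and -0.044 (SE 0.052, edgeR adjusted p = 0.443) at 24 h. The fitted value of vps38 turned to 0.20 and 0.14 under library-size scaling, both called. The catalytic and protein kinase subunits are listed in the files under other symbols, pik3 (Vps34) and ppk19 (Vps15). They had log2 fold changes of 0.60 (SE 0.056) and 0.52 (SE 0.041) at 5 h, and of 1.24 (SE 0.056, edgeR adjusted p = 2.88e-11) and 1.18 (SE 0.042, edgeR adjusted p = 2.26e-12) at 24 h. The gene now named atg38 (SPBC660.08), a further subunit, had 0.57 (SE 0.049) at 24 h.

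Genes of membrane supply were higher in all 5 cases at both times. Atg9 is the membrane protein of the vesicles that seed the autophagosome, Atg2 transfers lipid, and the Atg18 family binds phosphatidylinositol 3-phosphate. Normalised counts of atg1802 (SPAC823.16c) were 14.8, 13.5, 12.8 and 14.7 CPM in the controls, 31.2, 34.6, 33.3 and 33.5 CPM at 5 h and 33.5, 37.0, 31.7 and 35.8 CPM at 24 h. The D2O groups overlapped each other and both stood above the controls, with log2 fold changes of 1.25 (SE 0.066, edgeR adjusted p = 3.78e-10) at 5 h, the largest of any member at that time, and 1.31 (SE 0.066, edgeR adjusted p = 1.13e-10) at 24 h. Its paralogs atg1801 and atg1803 had 0.69 (SE 0.065) and 0.76 (SE 0.088) at 5 h, and 1.12 (SE 0.064) and 0.57 (SE 0.089) at 24 h, and listed antisense RNAs cover 64.7% of atg1801 (0.70 and 1.09) and 41.5% of atg1803 (0.96 and 0.64). For atg2 the values were 0.27 (SE 0.040) and 0.83 (SE 0.040), and for atg9 they were 0.33 (SE 0.050) and 0.73 (SE 0.050).

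Both sorting nexins and both vacuolar genes of the atg group were higher at each time. Sorting nexins Atg20 and Atg24 bind curved endosomal membrane. Normalised counts of atg20 (SPCC16A11.08) were 17.7, 16.2, 15.4 and 15.7 CPM in the controls, 30.7, 30.6, 31.1 and 35.1 CPM at 5 h and 54.1, 49.8, 53.1 and 58.0 CPM at 24 h. No groups overlapped, and atg20 reached 3.31-fold of control at 24 h, with log2 fold changes of 0.97 (SE 0.067, edgeR adjusted p = 6.65e-09) at 5 h and 1.73 (SE 0.066, edgeR adjusted p = 5.39e-12) at 24 h. Its partner atg24 had 0.37 (SE 0.047) and 0.67 (SE 0.047). The vacuolar lipase gene atg15, whose enzyme opens autophagic bodies, had 0.67 (SE 0.046) at 5 h and 1.18 (SE 0.046) at 24 h. For atg22, a vacuolar amino acid exporter, the values were 0.74 (SE 0.042) and 0.84 (SE 0.042). Antisense RNAs listed over 61.1% of atg24 (0.44 and 0.74) and 48.3% of atg22 (0.78 and 0.82) had values near those of the genes, and without strand the counts of each pair cannot be told apart.

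**Figure D3:**
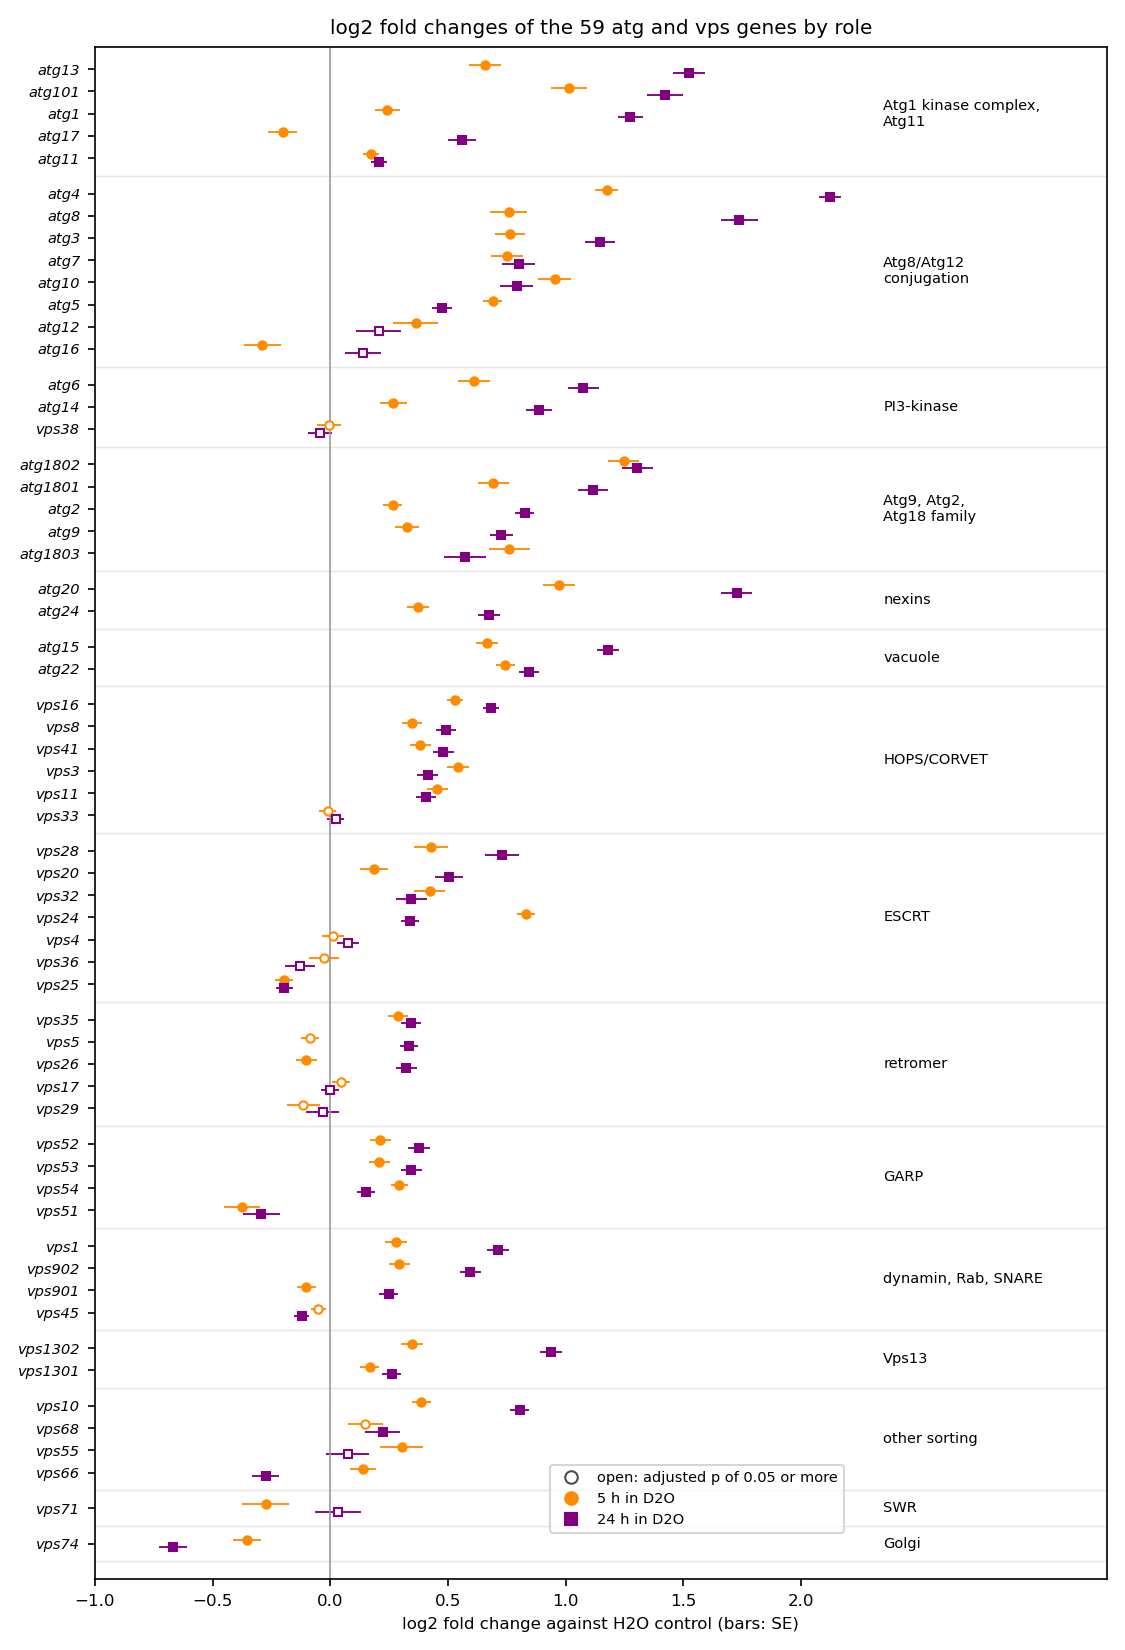
Log2 fold changes against control (x axis, bars are SE) of the 59 atg and vps genes by role, at 5 h (circles) and 24 h (squares) in D2O; open symbols did not pass the test. The atg genes run up to 2.12 (atg4 at 24 h), and the vps genes run from -0.67 (vps74 at 24 h) to 0.94 (vps1302 at 24 h).

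Among vps genes, most genes of the vacuolar tethers were higher at both times. HOPS and CORVET dock vesicles at vacuole and endosome, with Vps11, Vps16 and Vps33 in both, Vps41 in HOPS, and Vps3 and Vps8 in CORVET. Of these 6 genes, 5 were higher at both times, and vps33 was not called, with -0.010 (SE 0.037, edgeR adjusted p = 0.808) at 5 h and 0.023 (SE 0.037, edgeR adjusted p = 0.567) at 24 h (0.19 and 0.21, both called, under library-size scaling). Normalised counts of vps16 (SPAC824.05) were 50.3, 48.6, 49.2 and 47.0 CPM in the controls, 70.9, 71.3, 70.5 and 68.6 CPM at 5 h and 79.8, 80.4, 77.2 and 76.0 CPM at 24 h. The groups were ordered without overlap, with log2 fold changes of 0.53 (SE 0.034, edgeR adjusted p = 3.00e-09) and 0.68 (SE 0.034, edgeR adjusted p = 7.99e-11). The CORVET gene vps3 (SPCC364.05) had 30.2, 33.6, 30.4 and 30.5 CPM in the controls, 45.5, 46.7, 44.1 and 45.3 CPM at 5 h and 41.3, 42.3, 39.8 and 42.6 CPM at 24 h. It was highest at 5 h, with 0.54 (SE 0.046, edgeR adjusted p = 5.91e-08) at 5 h, 0.41 (SE 0.046, edgeR adjusted p = 8.51e-07) at 24 h and -0.13 (SE 0.045, edgeR adjusted p = 0.0195) between the times. Without 24 h replicate 3 or 5 h replicate 2 the difference between the times was not called (adjusted p = 0.0651 and 0.0577). For vps11 (SPAC823.12) the values were 101, 115, 106 and 112 CPM in the controls, 147, 153, 147 and 148 CPM at 5 h and 137, 144, 144 and 149 CPM at 24 h. The log2 fold change of vps11 was 0.46 (SE 0.043, edgeR adjusted p = 1.94e-07) at 5 h and 0.41 (SE 0.043, edgeR adjusted p = 4.76e-07) at 24 h, and the D2O groups overlapped. In vps41 (SPAP27G11.05c) there were 73.1, 80.5, 72.0 and 76.1 CPM in the controls, 97.1, 102, 95.3 and 99.4 CPM at 5 h and 102, 106, 100.3 and 113 CPM at 24 h. The D2O groups of vps41 overlapped and both lay above the controls. Its log2 fold change was 0.38 (SE 0.045, edgeR adjusted p = 1.89e-06) at 5 h and 0.48 (SE 0.044, edgeR adjusted p = 1.07e-07) at 24 h, and vps8 had 0.35 (SE 0.043) and 0.49 (SE 0.043). The core subunit listed as pep3 (Vps18) had 0.59 (SE 0.058) and 0.52 (SE 0.058), while vam6 (Vps39) had 0.080 (SE 0.048, edgeR adjusted p = 0.140) and -0.064 (SE 0.048, edgeR adjusted p = 0.229).

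The ESCRT genes did not move as a block. ESCRT proteins sort ubiquitinated membrane proteins into vesicles inside the endosome. Of the members, Vps28 is in ESCRT-I, Vps25 and Vps36 are in ESCRT-II, and Vps20, Vps24 and Vps32 are in ESCRT-III. The ATPase Vps4 takes ESCRT-III apart, and a further ESCRT-III subunit, Vps2, is listed as did4. At each time 4 of the 7 genes were higher (vps20, vps24, vps28 and vps32) and vps25 was lower. Normalised counts of vps24 (SPAC9E9.14) were 51.7, 49.1, 45.8 and 48.6 CPM in the controls, 89.9, 85.0, 86.7 and 85.9 CPM at 5 h and 62.3, 61.4, 62.9 and 60.3 CPM at 24 h. All 5 h samples lay above all others and the 24 h samples above the controls, with log2 fold changes of 0.83 (SE 0.038, edgeR adjusted p = 8.09e-11) at 5 h, 0.34 (SE 0.039, edgeR adjusted p = 1.13e-06) at 24 h and -0.49 (SE 0.038, edgeR adjusted p = 4.57e-08) between the times. ESCRT-I gene vps28 (SPAC1B3.07c) had 27.4, 29.0, 32.2 and 29.4 CPM in the controls, 37.7, 40.2, 35.1 and 45.7 CPM at 5 h and 49.4, 47.7, 48.7 and 50.2 CPM at 24 h. The 3 groups of vps28 did not overlap, and its log2 fold change was 0.43 (SE 0.073, edgeR adjusted p = 8.38e-05) at 5 h and 0.73 (SE 0.072, edgeR adjusted p = 2.18e-07) at 24 h. For vps32 (SPAC1142.07c) the values were 51.6, 52.1, 61.0 and 55.8 CPM in the controls, 78.8, 75.9, 70.5 and 70.3 CPM at 5 h and 73.7, 70.0, 74.0 and 62.3 CPM at 24 h. The log2 fold change of vps32 was 0.42 (SE 0.065, edgeR adjusted p = 3.23e-05) at 5 h and 0.34 (SE 0.065, edgeR adjusted p = 1.86e-04) at 24 h, with overlap between the D2O groups. The non-coding RNA SPNCRNA.924, listed over 24.9% of vps32, had 0.43 and 0.38, so reads of the pair may be shared. In vps20 (SPBC215.14c) there were 20.0, 19.1, 19.3 and 20.2 CPM in the controls, 22.8, 20.9, 21.8 and 23.9 CPM at 5 h and 26.5, 26.4, 30.1 and 28.5 CPM at 24 h. Again the groups did not overlap, and the log2 fold change of vps20 was 0.19 (SE 0.061, edgeR adjusted p = 0.0122) at 5 h and 0.50 (SE 0.060, edgeR adjusted p = 1.76e-06) at 24 h.

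The ESCRT-II genes vps25 and vps36 and the ATPase gene vps4 were not among those called higher. The log2 fold change of vps25 was -0.20 (SE 0.037, edgeR adjusted p = 2.10e-04) at 5 h and -0.20 (SE 0.037, edgeR adjusted p = 1.91e-04) at 24 h, but under library-size scaling these became 0.0020 and -0.010 and neither was called. Its model is overlapped over 62.2% of its length by usp102, with log2 fold changes of -0.42 and -0.44. For vps36 the values were -0.025 (SE 0.063, edgeR adjusted p = 0.731) and -0.13 (SE 0.064, edgeR adjusted p = 0.0780), and for vps4 they were 0.011 (SE 0.047, edgeR adjusted p = 0.842) and 0.075 (SE 0.047, edgeR adjusted p = 0.151), with vps4 called higher under library-size scaling at both times. An antisense RNA over 79.3% of vps4 had 0.086 and 0.076. Without 24 h replicate 4, vps36 was called lower at 24 h, with -0.16 (adjusted p = 0.0409), as it was under median-of-ratios scaling, with -0.14 (adjusted p = 0.0498). The ESCRT-0 gene sst4 (Vps27) had 0.94 (SE 0.036, edgeR adjusted p = 1.20e-11) at 5 h and 1.52 (SE 0.036, edgeR adjusted p = 3.41e-14) at 24 h, more than any ESCRT gene with a vps symbol.

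Retromer, which returns receptors from endosome to Golgi, showed little at 5 h. Of its 5 genes, 1 was higher and 1 lower at 5 h, and 3 were higher at 24 h. The cargo subunit vps35 was higher at both times, with 0.29 (SE 0.044) and 0.34 (SE 0.044). Normalised counts of vps26 (SPAC4G9.13c) were 114, 123, 119.7 and 119 CPM in the controls, 106, 117, 115 and 105 CPM at 5 h and 148, 149, 141 and 155 CPM at 24 h. At 5 h its samples overlapped the controls, with a log2 fold change equal to -0.10 (SE 0.044, edgeR adjusted p = 0.0496), and at 24 h all lay above, with 0.32 (SE 0.044, edgeR adjusted p = 7.60e-06). The 5 h call rests on a p just under the threshold: it was not called without control replicate 2, 3 or 4, 5 h replicate 1 or 4, or 24 h replicate 1 or 2 (adjusted p between 0.0590 and 0.143), and it turned to 0.098 under library-size scaling. The gene idn1 overlaps 48.4% of vps26 and had -0.15 and 0.32. The nexin gene vps5 had -0.087 (SE 0.039, edgeR adjusted p = 0.0548) at 5 h and 0.34 (SE 0.039, edgeR adjusted p = 1.22e-06) at 24 h, and its 5 h value turned to 0.11 and was called under library-size scaling. That 5 h value was called lower without control replicate 4, with -0.12 (adjusted p = 0.0120), and under median-of-ratios scaling, with -0.10 (adjusted p = 0.0359). An antisense RNA listed over 26.5% of vps5 had -0.12 and 0.37. Neither vps17 nor vps29 passed the test, with values at 24 h of -0.0014 (SE 0.039, edgeR adjusted p = 0.975) and -0.032 (SE 0.069, edgeR adjusted p = 0.682). Without control replicate 1, vps29 was called lower at 5 h, with -0.17 (adjusted p = 0.0270). Under library-size scaling vps17 was called higher at both times, with 0.24 and 0.18. The gene tah18 overlaps 47.8% of vps17 and had -0.070 and -0.35.

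GARP tethers vesicles that return from endosomes to the Golgi, and its 4 genes went 2 ways. The genes vps52, vps53 and vps54 were higher at both times: vps52 had 0.21 (SE 0.045) and 0.38 (SE 0.045), vps53 had 0.21 (SE 0.046) and 0.34 (SE 0.046), and vps54 had 0.29 (SE 0.037) and 0.15 (SE 0.037). The gene cdc10 overlaps 28.1% of vps52 and had 0.30 and 0.36. The gene of the small subunit, vps51, was lower, with -0.37 (SE 0.077, edgeR adjusted p = 4.95e-04) at 5 h and -0.29 (SE 0.077, edgeR adjusted p = 0.00285) at 24 h. Under library-size scaling vps51 stayed below 0, at -0.18 and -0.11, and was not called at either time.

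The dynamin-like GTPase gene vps1 (SPAC767.01c), whose product pinches membranes, had 185, 192, 191 and 192 CPM in the controls, 221, 235, 221 and 247 CPM at 5 h and 309, 307, 303 and 329 CPM at 24 h. Its log2 fold change was 0.28 (SE 0.047, edgeR adjusted p = 7.94e-05) at 5 h and 0.71 (SE 0.047, edgeR adjusted p = 2.41e-09) at 24 h, and the 3 groups did not overlap. Vps901 and Vps902 are Rab5 exchange factors of the Vps9 kind. Normalised counts of vps902 (SPBC29A10.11c, now muk1 in RefSeq) were 69.2, 73.9, 67.7 and 71.9 CPM in the controls, 85.4, 84.1, 86.6 and 90.4 CPM at 5 h and 108, 99.5, 104 and 115 CPM at 24 h. No groups overlapped, and vps902 was higher at both times, with 0.29 (SE 0.045, edgeR adjusted p = 3.28e-05) and 0.60 (SE 0.045, edgeR adjusted p = 1.03e-08). The other, vps901 (SPBC4F6.10), had 167, 166, 170.2 and 171 CPM in the controls, 154, 155, 152 and 167 CPM at 5 h and 203, 192, 201 and 204 CPM at 24 h. Its 5 h samples overlapped the controls and its 24 h samples lay above them, with log2 fold changes of -0.10 (SE 0.040, edgeR adjusted p = 0.0318) and 0.25 (SE 0.040, edgeR adjusted p = 3.90e-05), and the 5 h value turned to 0.098 and was not called under library-size scaling. Nor was it called without control replicate 3 or 4 or 5 h replicate 1, 2 or 3 (adjusted p between 0.0655 and 0.114). The gene SPBC4F6.11c overlaps 46.0% of vps901 and had -0.56 and -0.24. The SNARE regulator vps45 had -0.050 (SE 0.033, edgeR adjusted p = 0.179) at 5 h and -0.12 (SE 0.033, edgeR adjusted p = 0.00353) at 24 h, which turned to 0.15 (called) and 0.065 (not called) under library-size scaling. The gene urb2 overlaps 27.7% of vps45 and had -0.92 and -1.32.

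The long lipid transfer proteins of the Vps13 family had unequal changes. Normalised counts of vps1302 (SPBC16C6.02c) were 381, 386, 373 and 392 CPM in the controls, 495, 484, 476 and 494 CPM at 5 h and 711, 719.6, 706 and 799 CPM at 24 h. The groups were ordered without overlap, and the log2 fold change was 0.35 (SE 0.048, edgeR adjusted p = 1.07e-05) at 5 h and 0.94 (SE 0.048, edgeR adjusted p = 1.26e-10) at 24 h, the highest of the vps genes at that time. Its paralog vps1301 had 0.17 (SE 0.040) and 0.26 (SE 0.040). Antisense RNAs listed over 19.8% and 16.8% of vps1301 had 0.19 and 0.11 at 5 h, and 0.48 and 0.24 at 24 h. The receptor gene vps10 (SPBC16C6.06), whose product sorts carboxypeptidase Y to the vacuole, had 209, 199.7, 209.5 and 201 CPM in the controls, 259, 273, 271 and 270.0 CPM at 5 h and 364, 361, 351 and 356 CPM at 24 h. The 3 groups of vps10 did not overlap, and its log2 fold change was 0.39 (SE 0.040, edgeR adjusted p = 5.56e-07) at 5 h and 0.80 (SE 0.040, edgeR adjusted p = 9.97e-11) at 24 h. An antisense RNA listed over 72.9% of vps10 had 0.38 and 0.79, and the counts of the pair cannot be told apart without strand.

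The largest fall of any member was in vps74, the gene of a Golgi protein that holds glycosyltransferases in place (gpp74 in current RefSeq). Normalised counts of vps74 (SPAC5D6.13) were 114, 113, 107 and 107 CPM in the controls, 89.8, 88.8, 86.8 and 80.4 CPM at 5 h and 76.6, 73.6, 67.2 and 60.9 CPM at 24 h. Controls lay above 5 h samples and these above 24 h samples, with log2 fold changes of -0.35 (SE 0.060, edgeR adjusted p = 8.49e-05) at 5 h and -0.67 (SE 0.061, edgeR adjusted p = 8.63e-08) at 24 h. This fall kept its call under all alternatives tried, library-size scaling included. Normalised counts of vps66 (SPAC1783.02c) were 49.3, 47.4, 46.3 and 52.8 CPM in the controls, 54.0, 56.4, 56.5 and 48.9 CPM at 5 h and 42.1, 39.3, 42.1 and 38.4 CPM at 24 h. On the log2 scale vps66 was at 0.14 (SE 0.056, edgeR adjusted p = 0.0357) at 5 h, where its samples overlapped the controls, and -0.27 (SE 0.057, edgeR adjusted p = 4.55e-04) at 24 h, where they did not. The 5 h rise was not called in DESeq2 (adjusted p = 0.0509), nor without control replicate 1, 2 or 3 or 5 h replicate 1, 2 or 3 (adjusted p between 0.0545 and 0.0996), and the 24 h fall was -0.090 and not called under library-size scaling. A neighbouring gene, SPAC1783.01, overlaps 93.9% of vps66 and had 0.13 and -0.63. The endosomal membrane protein genes vps55 and vps68 had 0.30 (SE 0.092, edgeR adjusted p = 0.00777) and 0.15 (SE 0.074, edgeR adjusted p = 0.0810) at 5 h, and 0.074 (SE 0.093, edgeR adjusted p = 0.472) and 0.22 (SE 0.074, edgeR adjusted p = 0.0129) at 24 h. Without 5 h replicate 4, vps68 was called higher at 5 h as well, with 0.19 (adjusted p = 0.0366). Under library-size scaling vps68 at 5 h was 0.35 (adjusted p = 0.00147) and vps55 at 24 h was 0.26 (adjusted p = 0.0194), both called higher. For vps71, the chromatin remodelling gene, the values were -0.27 (SE 0.099, edgeR adjusted p = 0.0208) and 0.035 (SE 0.097, edgeR adjusted p = 0.751), and the 5 h fall was -0.077 and not called under library-size scaling, and not called without control replicate 2 or 4 or 5 h replicate 1 or 4 (adjusted p between 0.0506 and 0.0655).

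**Figure D4:**
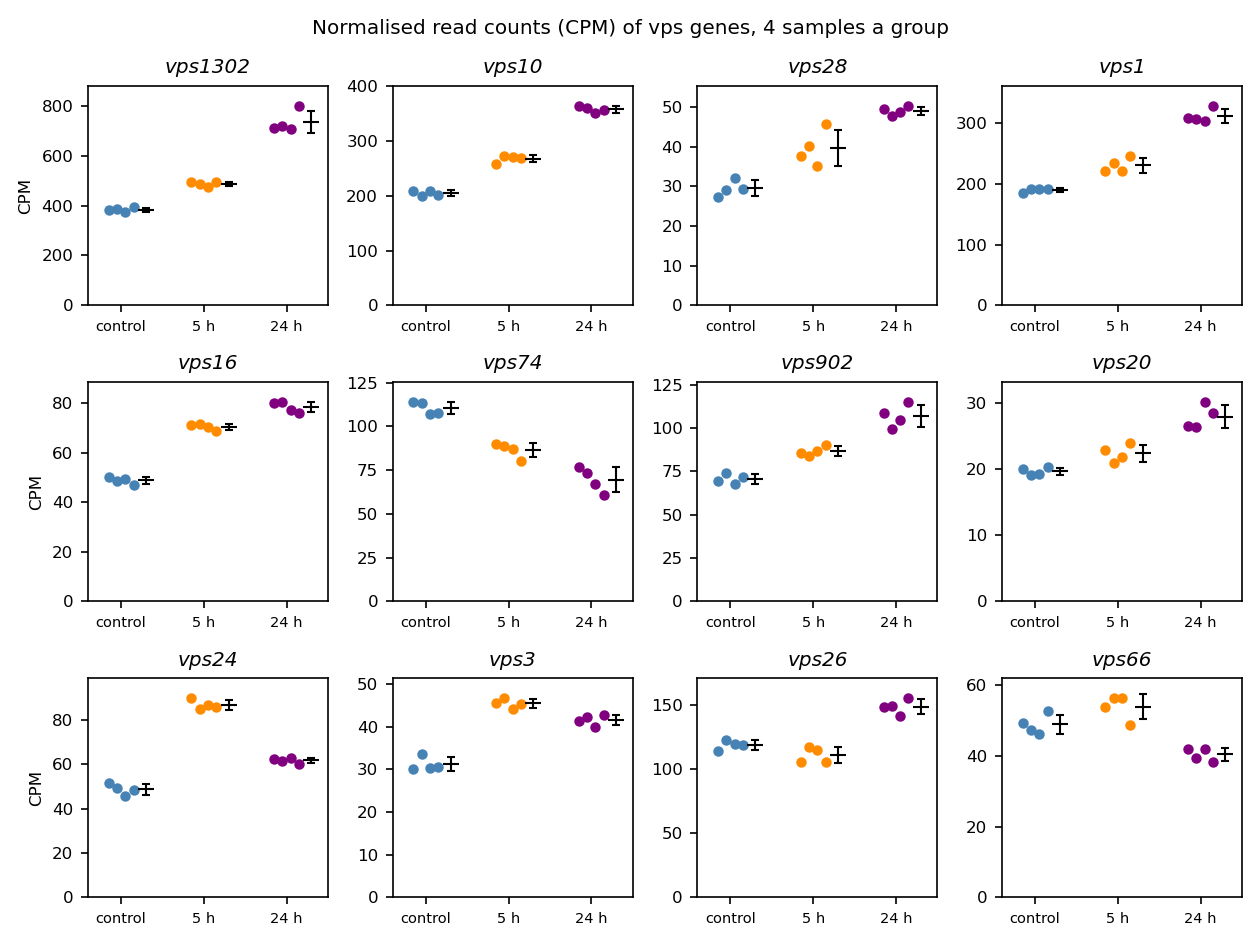
Normalised read counts (CPM, y axis from 0) of 12 vps genes in each of the 4 samples of the control, 5 h D2O and 24 h D2O groups (points), with the mean and SD beside them. The 24 h samples of vps1302, vps10 and vps1 lie above the 5 h samples and these above the controls, vps24 and vps3 are highest at 5 h, and vps74 falls through both times.

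The direct comparison of 24 h with 5 h in D2O asked how the members moved during exposure. At 24 h 31 members were higher than at 5 h, 17 of them atg genes, and 8 were lower, 2 of them atg genes. Of all features, 68.3% were called in this comparison, 33.6% higher and 34.6% lower. A single member, atg1, was at least 2-fold higher, as were 4.32% of all features, and 2.05% of all features but no member were at least 2-fold lower, vps24 being the lowest member with -0.49. The median log2 fold change was 0.42 for atg genes and 0.082 for vps genes, against -0.011 for all features tested. By each comparison's own calls, 39 members were higher than control at both times. Of these, 25 were higher still at 24 h (15 atg and 10 vps genes), among them atg22 on a marginal call, 5 were lower at 24 h than at 5 h (atg5, atg10, vps3, vps24 and vps54), and 9 did not differ by the test. A further 3 members were lower than control at both times (vps25, vps51 and vps74), 6 were called at neither time and 7 at a single time. The last 4, atg17, vps26, vps66 and vps901, were called in opposite directions. Their 5 h calls against control did not hold for vps26, vps66 and vps901 when some single libraries were left out. Under library-size scaling none of the 4 was called in opposite directions: the 5 h values were -0.0017 for atg17 and 0.098 for both vps26 and vps901, and the 24 h value of vps66 was -0.090, none of them called. All 4 are overlapped by a neighbouring gene, over 46.0% (vps901) to 93.9% (vps66) of their length. The 5 h and 24 h comparisons share the control samples.

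The autophagy members with the largest change from 5 h to 24 h were atg1, atg8 and atg4, described above. Among vps genes these were vps1302, with 0.59 (SE 0.048, edgeR adjusted p = 8.02e-08), vps24, with -0.49 (SE 0.038, edgeR adjusted p = 4.57e-08), and vps1, with 0.43 (SE 0.047, edgeR adjusted p = 1.80e-06). The 2 atg genes lower at 24 h than at 5 h were atg5 and atg10, with -0.22 (SE 0.039) and -0.16 (SE 0.066). The atg10 call was lost without 24 h replicate 1, 3 or 4 or 5 h replicate 1 or 3, each left out alone (adjusted p between 0.0676 and 0.127), and in a fit of the D2O groups alone (adjusted p = 0.0589). Without 5 h replicate 1 the count stayed at 2 because atg1803 was called lower (adjusted p = 0.0461). The higher level of atg22 at 24 h than at 5 h, 0.099 (SE 0.040, edgeR adjusted p = 0.0399), was not called without any one of the 24 h libraries or without 5 h replicate 1, 2 or 3 (adjusted p between 0.0582 and 0.111), nor in DESeq2 (adjusted p = 0.0684) or under median-of-ratios (0.0526) or library-size scaling (0.153).

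Features that overlap in the annotation may share reads, and strand was not stated, so the counts were repeated on members that other listed features overlap over under 10% of their length. This limit was chosen after the values were seen. It kept 36 members, 14 atg and 22 vps genes. In that subset 13 of 14 atg genes were higher at 24 h and 13 at 5 h. Of the 22 vps genes, 14 were higher at each time, 3 were lower at 5 h and 2 at 24 h. The median log2 fold change at 24 h was 0.98 for these atg genes and 0.34 for these vps genes. The subset includes atg4, atg1, atg13, atg20, vps1302, vps28, vps16, vps74 and vps902. It leaves out atg8, which is overlapped over 12.1% of its length.

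Genes of the same pathways that do not carry a member's symbol were counted from lists, to be read against the 39.1% of all features called higher at 5 h and the 41.8% at 24 h. Of 11 genes of the same roles, such as pik3, ppk19, sst4 and pep3, 8 were higher at 5 h and 10 at 24 h, with a median log2 fold change of 0.48 and 0.65, and vam6 was called at neither time. The mitochondrial receptor gene now named atg43 (SPAC14C4.01c) had 0.48 (SE 0.033) at 5 h and 1.09 (SE 0.033) at 24 h. For the mitofissin gene now named atg44 (SPAC26A3.14c), whose product divides mitochondria for mitophagy, the values were 0.21 (SE 0.094, edgeR adjusted p = 0.0548) and 0.65 (SE 0.094, edgeR adjusted p = 1.34e-05). The ESCRT genes did4, vps60 (SPCC162.06c) and dot2 had 0.84 (SE 0.048), 0.51 (SE 0.060) and 0.27 (SE 0.053) at 24 h.

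The vacuolar hydrolases degrade what autophagy delivers, and their genes were higher too. All 7 were higher at 24 h and 6 at 5 h, with median log2 fold changes of 1.43 and 0.77. The vacuolar serine protease gene isp6 averaged 119 ± 9.56 CPM without D2O, 349 ± 16.7 CPM after 5 h and 1324 ± 62.7 CPM after 24 h (mean ± SD of 4 samples). On the log2 scale isp6 was higher by 1.56 (SE 0.063, edgeR adjusted p = 1.93e-11) at 5 h and by 3.48 (SE 0.067, edgeR adjusted p = 5.45e-15) at 24 h, where it was 11.2-fold of control. For psp3, a related serine protease gene, the log2 fold change was 0.77 (SE 0.072) at 5 h and 2.37 (SE 0.076) at 24 h. The carboxypeptidase Y gene cpy1, the cargo of Vps10, had 1.24 (SE 0.054) and 1.61 (SE 0.055), and the vacuolar mannosidase gene ams1 had 1.07 (SE 0.046) and 1.43 (SE 0.047).

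Of 11 further autophagy factors, 7 were called higher after 5 h and 8 after 24 h, with 1 lower at the earlier time and 2 at the later. The Atg9-binding protein gene ctl1 had 1.15 (SE 0.048) at 5 h and 1.04 (SE 0.048) at 24 h. For fsc1, which acts in the fusion of autophagosomes with the vacuole, the values were 0.66 (SE 0.044) and 1.11 (SE 0.044), for the SNARE gene fsv1 1.11 (SE 0.073) and 1.05 (SE 0.073), and for the vacuolar Rab gene ypt7 0.67 (SE 0.066) and 0.95 (SE 0.066). Of 10 ESCRT genes under other symbols, 7 were higher at 5 h and 9 at 24 h, a list that shares sst4, did4 and dot2 with the 11 genes above. The genes hse1, sst6 and cmp7 had 1.21 (SE 0.059), 0.92 (SE 0.068) and 0.90 (SE 0.077) at 24 h. Of 7 genes of endosome and vacuole fusion, 5 were higher at each time. The endosomal SNARE gene pep12 had 1.20 (SE 0.038) at 24 h, the SNARE gene vsl1 had 0.54 (SE 0.054), the lipid kinase gene fab1 had 0.51 (SE 0.040) and vac8 had 0.38 (SE 0.040).

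**Figure D5:**
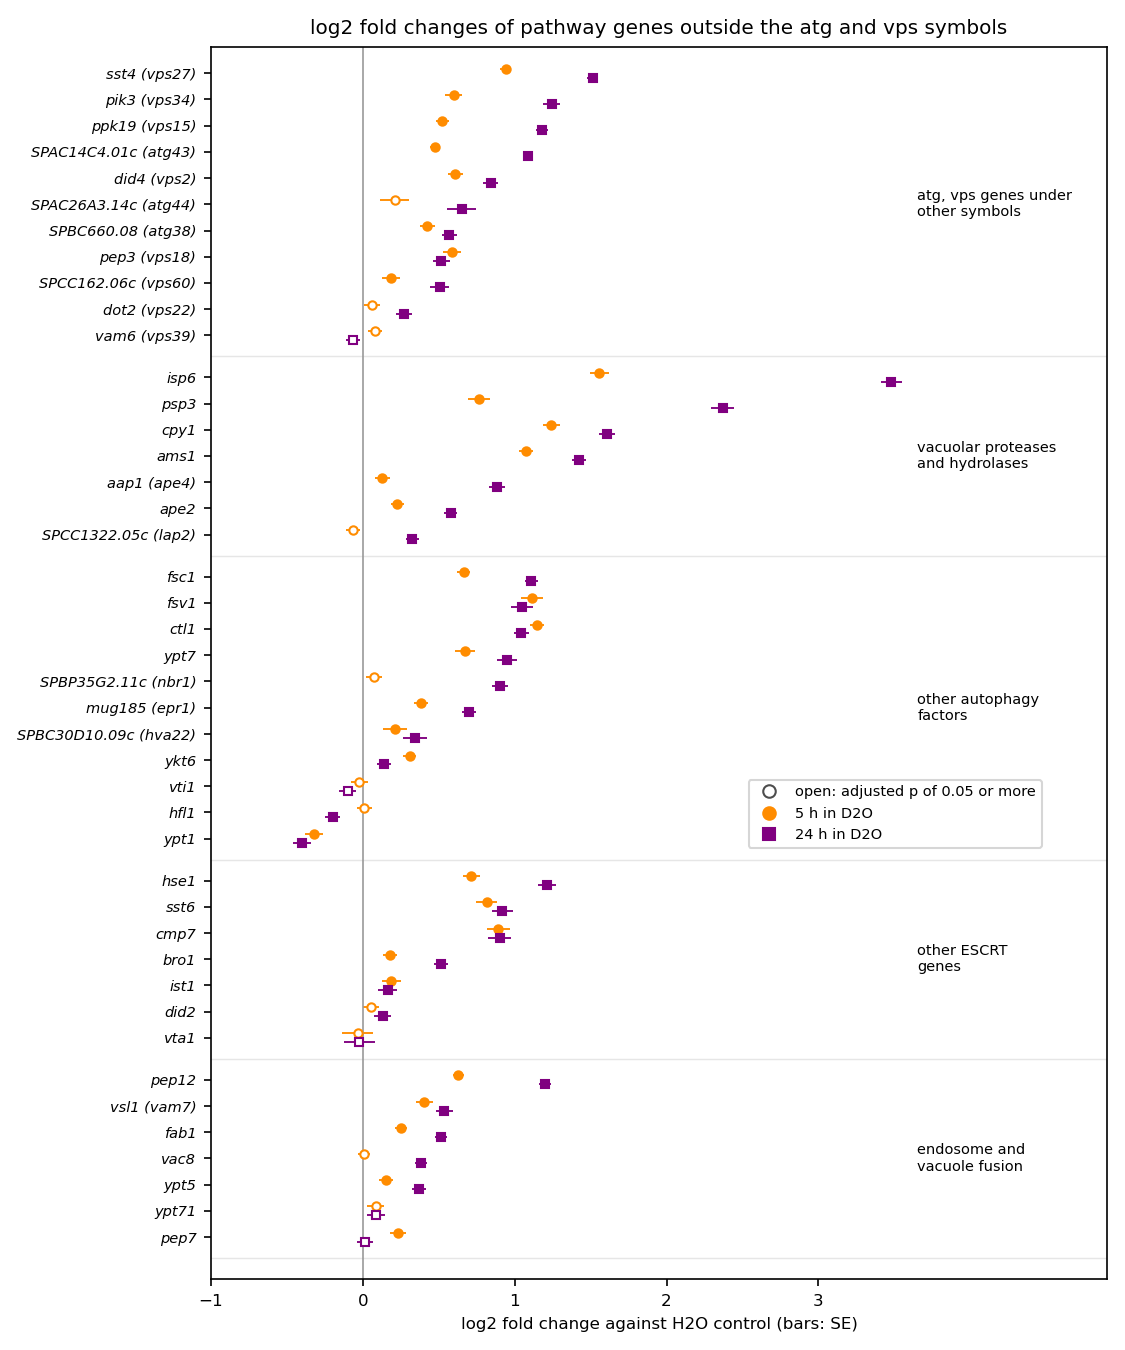
Log2 fold changes against control (x axis, bars are SE) of listed pathway genes outside the member symbols at 5 h (circles) and 24 h (squares) in D2O, with names from lists in parentheses where the file symbol differs; open symbols did not pass the test. The protease gene isp6 reaches 3.48 at 24 h, and ypt1 is lowest with -0.40.

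Marker genes of meiosis and spores were checked in the same libraries, since autophagy and sexual differentiation both follow nitrogen starvation. Of the 5 genes, spo5, isp3 and mde10 were higher and mfm2 lower after 5 h, whereas 24 h samples had higher spo5 and isp3 with lower mei4 and mfm2. Summed over the 5 genes, control samples had 161 to 179 CPM, 5 h samples 151 to 155 CPM and 24 h samples 273 to 296 CPM, and none was at 0 counts in any sample. For the spore gene isp3 the log2 fold change reached 3.74 (SE 0.080, edgeR adjusted p = 1.04e-14) at 24 h, and the meiotic transcription factor gene mei4 had -0.35 (SE 0.085, edgeR adjusted p = 0.00137). The rise of the sum at 24 h lay in isp3, which averaged 11.3 ± 1.75 CPM without D2O, 61.6 ± 2.99 CPM after 5 h and 152 ± 6.60 CPM after 24 h (mean ± SD of 4 samples). The mating pheromone gene mfm2 averaged 106 ± 8.22 CPM, 27.8 ± 4.89 CPM and 77.1 ± 7.44 CPM over the same groups, with log2 fold changes of -1.93 (SE 0.11, edgeR adjusted p = 5.57e-10) at 5 h and -0.46 (SE 0.099, edgeR adjusted p = 5.87e-04) at 24 h. The part of these genes in the atg and vps values was not tested.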

How the data were processed

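RNA was measured by sequencing in 12 samples, 4 per group. Per the file headers, the authors deposited a table per sample with the reads counted on each of 7015 features, the length of the feature and its RPKM (reads per length and library total). The submitters' processing notes name BWA 0.7.12. The counter, the genome build and the strandedness are not given in the sources used here. The deposited RPKM values were recomputed from counts with a relative difference of at most 4.96e-06 and were used only for levels per length. The deposited counts were tested with edgeR 4.0.16 (limma 3.58.1, R 4.3.3): filterByExpr with its default minimum of 10 counts left 6683 features, TMM scaling and a quasi-likelihood fit by group followed. The biological coefficient of variation was 8.47%. The SE is the absolute log2 fold change over the square root of F. Names and overlaps came from RefSeq annotation of ASM294v3, which matched 6845 features (97.6%) and all 59 members. No coordinates or sequences are printed, since the build of the files is not given.

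Members and gene lists were chosen with earlier results of these data known. Full values are given for the 6 atg and 8 vps genes with the largest absolute log2 fold change at each time, and 3 of each between the times, among called genes without overlap between groups, and for members called in opposite directions. From each pathway list up to 4 called genes were named. Alternatives were median-of-ratios and library-size scaling, no filter, a filter at 50 counts on average, DESeq2 1.42.0, the replicate number as a block, a fit of the 2 groups compared, removal of non-coding or of the 10 most counted features, and each sample left out. Added later was the count over members overlapped over under 10% of their length. The series' design text calls the samples independent without naming separate cultures, so p-values describe the spread between these samples.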

Additional observations from a re-analysis of the deposited data

Results flagged for a closer look

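Called in opposite directions at 5 h and 24 h against control were 4 members. The log2 fold change of 24 h against 5 h, given without a p because that choice of genes fixes a difference between the times, was 0.76 for atg17, 0.42 for vps26, -0.41 for vps66 and 0.35 for vps901. The 5 h calls of vps26, vps66 and vps901 ended when some single libraries were left out. Under library-size scaling none of the 4 kept opposite calls, and neighbouring genes overlap all 4.

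Among the 26 genes with full values, 6 of 78 groups of 4 samples held a value far from the other 3, by a rule that chance meets in about 1 in 20 groups. At 5 h atg13 had 94.2 CPM in replicate 4 against 75.5 to 77.4 CPM in the others, and atg20 had 35.1 CPM in replicate 4 against 30.6 to 31.1 CPM. At 24 h vps1302 had 799 CPM in replicate 4 against 706 to 720 CPM. In the controls atg1 had 68.6 CPM in replicate 1 against 62.9 to 63.6 CPM, vps1 had 185 CPM in replicate 1 against 191 to 192 CPM, and vps3 had 33.6 CPM in replicate 2 against 30.2 to 30.5 CPM.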

How the results depend on the processing

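Of 3717 values of the 59 members under alternatives, 3605 kept a call in the same direction or stayed uncalled, the latter counted whatever their sign. Another 64 lost and 38 gained a call. The remaining 10 turned round with a call in the main or the alternative fit, all under library-size scaling. Those were at 5 h vps25 (0.0020), vps26 (0.098), vps33 (0.19), vps38 (0.20), vps45 (0.15), vps5 (0.11) and vps901 (0.098), and at 24 h vps17 (0.18), vps38 (0.14) and vps45 (0.065). Under that scaling the median of all features was 0.21 at 5 h and 0.20 at 24 h, and members lower came to 1 at 5 h (0 atg, 1 vps) and 1 at 24 h (1 vps). With samples left out in turn, members lower at 5 h ranged from 5 to 9, vps genes lower at 5 h from 3 to 7, and atg genes lower at 24 h against 5 h from 1 to 3. Behind these ranges were the calls of vps5, vps26, vps29, vps71 and vps901 at 5 h, and of atg10 and atg1803 between the times. Calls outside these ranges changed too, those of vps66 and vps68 at 5 h and of atg12, atg16 and vps36 at 24 h. Between the times they were atg22, vps3, vps41, vps45, vps53, vps55 and vps1301. The lower level of vps55 at 24 h than at 5 h was not called without 24 h replicate 2 or 4 or 5 h replicate 1, 2 or 3 (edgeR adjusted p between 0.0545 and 0.119). What sets the libraries left out apart was not tested. Restricted to the 36 members with little overlap, 27 were higher and 4 lower at 5 h, 27 were higher and 2 lower at 24 h, and 19 were higher at 24 h against 5 h, since fewer genes were counted. With the replicate number as a block, 41 members were higher and 8 lower at 5 h, 44 and 5 at 24 h, and 32 and 8 between the times; vps66 at 5 h (adjusted p = 0.0527) and atg10 between the times (adjusted p = 0.0513) were not called with the block, and atg1803 and vps41 between the times were. DESeq2 called 41 higher and 8 lower at 5 h, 44 and 5 at 24 h, and 31 and 9 between the times. The samples share only a number: deviations of same-numbered samples correlated from -0.13 to 0.073, from -0.27 to 0.54 and from -0.11 to 0.66 in the 3 comparisons, and 1, 2 and 4 of 8 samples correlated best with their own number. Every member had at least 191 counts in every sample, far above the filter.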
